A study of Mus musculus with 141 samples.

Results

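The potassium channel genes, whose symbols start with Kcn, were examined for DNA methylation at their gene ends in single cells of a mouse glioma line with the R132H mutation of Idh, the gene of isocitrate dehydrogenase. From the mutant enzyme comes 2-hydroxyglutarate, which blocks the TET enzymes that take part in removing methyl groups from DNA. Members were all protein-coding genes on the mouse autosomes (chromosomes 1 to 19) with such a symbol, 92 of 20665 autosomal protein-coding genes in the RefSeq table. CpGs within 1 kb of either end of a gene were pooled per arm, and a gene was measured where both arms had at least 50 calls, a call being 1 CpG in 1 cell read as methylated or unmethylated. This held for 51 of the 92 Kcn genes and for 10768 of all genes.

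Both arms were cells of the same IDH-mutant glioma line, so there was no arm without the mutation. In 1 arm, 67 single cells came from a culture kept over 2 weeks in 1 µM AG-881 (vorasidenib, an inhibitor of mutant IDH1 and IDH2), and in the other, 74 single cells came from a culture in the vehicle DMSO. Live cells were sorted, and their DNA was cut with MspI and profiled by single-cell reduced representation bisulfite sequencing (scRRBS), jointly with a Smart-seq2 transcriptome that was not analysed here. Separate cultures are not named in the labels, and each arm therefore counts as 1 sample: no test was possible, and intervals cover counting error at the 95% level only. Each arm was sequenced as 4 library pools, 1 to 4 for AG-881 and 5 to 8 for DMSO, and no pool mixes the arms, so pool and arm effects cannot be told apart. Cells had calls at a median of 88201 CpGs with AG-881 (23464 to 186290) and 66297 with DMSO (10287 to 161964). The 24 inline barcodes were all used in more than 1 pool, and 0 pairs of cells had identical sets of called CpGs.

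Potassium channels let potassium ions leave or enter a cell along their gradient and so set the resting potential and end the action potential. They fall into voltage-gated channels, channels opened by intracellular calcium or sodium, inward rectifiers and tandem pore domain leak channels, and several have auxiliary subunits. In the glial lineage, inward rectifiers such as Kcnj10 (Kir4.1) carry much of the potassium buffering of astrocytes and oligodendrocytes. In mammalian genomes, CpG-dense gene starts are mostly unmethylated, and dense methylation of a start is commonly found at genes that are not transcribed.

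Promoter sequences of Kcn genes show where in these genes the calls fell. RefSeq sequences of the GRCm38.p6 assembly, which mm10 shares, run from 250 bases before an annotated start to 50 after it. They were held for 68 of the 92 Kcn genes, with 93 starts in all. The MspI site CCGG, which reads the same on both strands, occurred in 59 of these 93 windows (63.4%) and in 52.8% of 32851 such windows of all genes in the table. The 6 windows below were picked after their values were seen, from those with at least 50 calls per arm, as examples of starts with high levels, with different levels in the arms and with levels near 0; they are not a full ranking. CpGs with a call in at least 1 cell stand in capitals, and all sequences read 5′ to 3′ on the gene's strand.

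The first pair carried high methylation in both arms. Kcng3 encodes a silent subunit that modifies other voltage-gated channels; in its window (chr17:83631846-83632145, minus strand) 44 of 49 CpGs had calls, and 69.6% of 181 calls with AG-881 and 66.2% of 219 with DMSO were methylated. Kcnk15 encodes a member of the acid-sensitive group of leak channels; its window (chr2:163853500-163853799, plus strand) had 57.7% of 111 calls methylated with AG-881 and 65.9% of 82 with DMSO.
Kcng3: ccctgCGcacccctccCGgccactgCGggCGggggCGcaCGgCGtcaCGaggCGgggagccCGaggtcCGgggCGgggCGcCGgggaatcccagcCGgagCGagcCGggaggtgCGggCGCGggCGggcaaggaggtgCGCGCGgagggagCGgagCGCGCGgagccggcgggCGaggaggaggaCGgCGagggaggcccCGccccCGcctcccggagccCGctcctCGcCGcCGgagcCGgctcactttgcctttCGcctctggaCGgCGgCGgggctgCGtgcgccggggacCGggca
Kcnk15: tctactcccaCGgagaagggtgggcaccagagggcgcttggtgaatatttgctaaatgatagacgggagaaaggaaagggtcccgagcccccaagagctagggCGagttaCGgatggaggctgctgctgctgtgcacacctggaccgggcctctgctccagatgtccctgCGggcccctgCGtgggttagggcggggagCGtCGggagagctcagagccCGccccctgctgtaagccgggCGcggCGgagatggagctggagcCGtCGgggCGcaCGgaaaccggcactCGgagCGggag

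The second pair had lower values with AG-881. Kcna3 encodes Kv1.3, a voltage-gated channel of lymphocytes and microglia; its window (chr3:107035912-107036211, plus strand) had 18.8% of 197 calls methylated with AG-881 and 36% of 161 with DMSO, a difference of -17.2 percentage points (-26.7 to -7.61). Kcnh8 encodes a channel of the Elk group; its window (chr17:52602459-52602758, plus strand) had 32.3% of 99 calls and 48.1% of 79 methylated, a difference of -15.8 points (-30.4 to -0.527).
Kcna3: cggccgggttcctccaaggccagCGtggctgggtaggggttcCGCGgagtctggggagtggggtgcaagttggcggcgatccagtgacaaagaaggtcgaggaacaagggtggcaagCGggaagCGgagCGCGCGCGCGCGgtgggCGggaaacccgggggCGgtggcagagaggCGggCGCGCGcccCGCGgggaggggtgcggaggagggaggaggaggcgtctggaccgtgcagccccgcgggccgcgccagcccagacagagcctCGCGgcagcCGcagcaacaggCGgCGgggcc
Kcnh8: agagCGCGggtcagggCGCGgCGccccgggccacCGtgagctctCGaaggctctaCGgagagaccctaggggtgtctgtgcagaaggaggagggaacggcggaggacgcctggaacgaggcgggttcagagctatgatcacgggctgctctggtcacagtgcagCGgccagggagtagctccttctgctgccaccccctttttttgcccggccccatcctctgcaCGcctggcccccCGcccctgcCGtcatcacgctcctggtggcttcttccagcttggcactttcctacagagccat

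The third pair was almost free of methylation. Kcnmb4 encodes an auxiliary subunit of the large-conductance calcium-activated channel that is abundant in brain; its window (chr10:116473474-116473773, minus strand) had 0 of 251 calls methylated with AG-881, with an exact upper bound of 1.46%, and 0.752% of 133 with DMSO. Kcna2 encodes the axonal channel Kv1.2; its window (chr3:107101317-107101616, plus strand) lies 10684 bases inside the gene, at an internal start, and had 0.463% of 216 calls and 1.66% of 181 methylated.
Kcnmb4: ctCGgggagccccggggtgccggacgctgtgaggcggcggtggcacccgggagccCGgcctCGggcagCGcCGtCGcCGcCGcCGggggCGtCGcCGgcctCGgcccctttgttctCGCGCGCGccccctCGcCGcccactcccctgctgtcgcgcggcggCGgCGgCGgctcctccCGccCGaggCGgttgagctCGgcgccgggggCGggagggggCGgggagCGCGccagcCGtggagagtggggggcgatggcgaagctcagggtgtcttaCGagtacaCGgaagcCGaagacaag
Kcna2: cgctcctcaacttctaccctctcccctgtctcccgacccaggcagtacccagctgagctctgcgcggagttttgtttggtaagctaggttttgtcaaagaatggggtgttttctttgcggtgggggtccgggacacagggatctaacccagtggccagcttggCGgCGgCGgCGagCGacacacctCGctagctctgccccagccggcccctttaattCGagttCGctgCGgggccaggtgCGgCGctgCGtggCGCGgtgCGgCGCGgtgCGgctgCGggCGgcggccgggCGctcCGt

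These 6 windows are all CpG-dense, with 49, 24, 37, 21, 48 and 31 CpGs in the order shown, and their levels ran from near 0 to over 60%. Among the 19 Kcn promoter windows with at least 50 calls in both arms, the median level was 12.1% with AG-881 and 20.7% with DMSO. The mean level of the arms was at least 10% in 12 of these 19 (63.2%) and in 12.9% of 5258 such windows of all genes. By 10 points or more, 5 Kcn windows were lower with AG-881 and 1 was higher, against a background of 3.92% lower and 1.03% higher over all windows. Where the mean level was 10 to 90%, so that a change of this size had room in both directions, the background was 28.3% lower and 7.95% higher. The 5 lower windows were those of Kcna3 and Kcnh8, Kcns3 (44.4% and 54.7%), Kcnd2 (12.1% and 23.5%) and an internal start of the leak channel gene Kcnk2 (35.4% and 47.1%). The higher one belonged to Kcnh1 (20.2% and 9.59%). Of these 6 windows, the interval of the difference lay wholly on the same side of 0 for Kcna3 and Kcnh8 and held 0 for the other 4.

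Over whole gene ends, the 51 measured Kcn genes stood at intermediate levels in both arms. Their median level was 23% with AG-881 and 24.3% with DMSO, where all 10768 genes had medians of 2.16% and 2.60%. A mean level of 10 to 90% was found in 42 of 51 Kcn genes (82.4%) and in 28.4% of all genes. Conversely, 6 Kcn genes (11.8%) had a mean level under 5%, against 61% of all genes. No test of this difference was run.

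**Figure D1:**
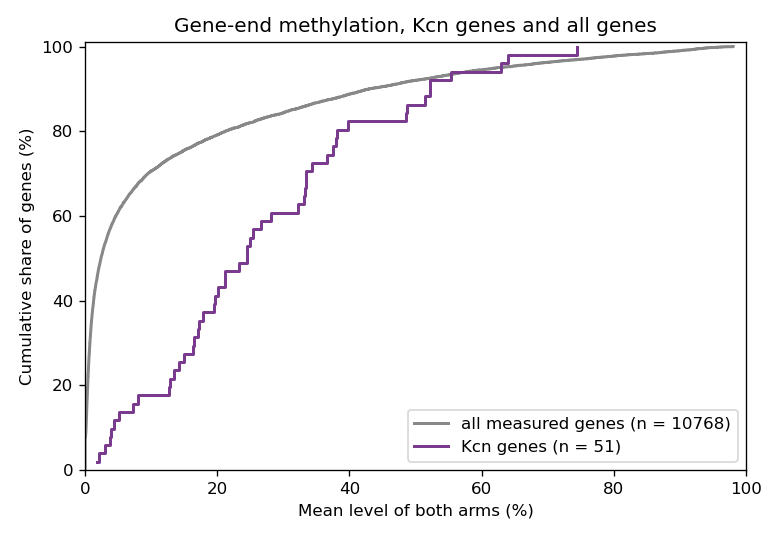
Cumulative share of genes (vertical axis, %) by mean methylation level of both arms at the gene ends (horizontal axis, %) for the 51 measured Kcn genes (purple) and all 10768 measured genes (grey). The grey curve has passed 60% of genes at a level of 5%, where the purple curve holds 11.8% of Kcn genes.

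The higher level was found in windows with few and with many CpGs. With 1 to 19, 20 to 49, 50 to 99 and 100 or more CpGs in the windows, the Kcn genes had median mean levels of 22.2%, 33.1%, 17.5% and 24.3%, from 6, 21, 18 and 6 genes. Genes outside the family fell across the same classes, with medians of 4.68%, 2.91%, 1.76% and 1.28%. Of the 29 Kcn genes with at least 40 CpGs, 23 (79.3%) had a mean level of at least 10%, against 24.1% of all genes with as many. Across the 51 Kcn genes, Pearson's r between the number of CpGs and the mean level was 0.0378 and Spearman's rho was -0.0442, a description across genes that share cells and libraries.

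Other channel genes of nerve cells and genes of potassium channel partners lay near the Kcn genes. The 28 measured of 63 neurotransmitter-gated channel genes had medians of 17.4% with AG-881 and 18.2% with DMSO, and 82.1% of them had a mean level of 10 to 90%. For 20 of 39 voltage-gated sodium and calcium channel genes the medians were 14.5% and 20.03%, with 75% in that range. For 10 of 17 genes of potassium channel partners the medians were 19.2% and 19.4%, with 70% in that range. This list holds genes of the sulfonylurea receptors, Dpp6-like subunits, Lrrc subunits and the related Hcn channels, and Amigo1, Lgi1, Adam22, Cntn2 and Cntnap2. The medians of all 3 lists lay closer to those of the Kcn genes than to those of all genes, and no test between the lists was run.

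By pooled calls of measured genes, silent voltage-gated modifiers had the highest methylation of the roles and channels opened by calcium or sodium the lowest. Silent modifiers (Kcnf, Kcng, Kcns) form no channel alone and change the gating of Kcnb channels, with which they assemble. Their 6 measured genes of 10 had 52.7% of 1859 calls methylated with AG-881 and 55.8% of 1679 with DMSO. Kcng3 alone gave 689 and 640 of these calls. By gene, their medians were 38.15% with AG-881 and 52.7% with DMSO, and those of the inward rectifiers 37.1% and 26.5%. The 6 calcium- or sodium-activated and auxiliary genes of 12 had 9.09% of 1364 calls and 11.7% of 1152 methylated. In between stood 24 of 29 pore-forming voltage-gated genes (19.6% and 19.9%), 3 of 11 auxiliary voltage-gated genes (16.1% and 18.5%), 6 of 15 inward rectifiers (24.9% and 24.2%) and 6 of 14 tandem pore domain genes (34.8% and 33.5%). Kcnrg, a regulator, had no CpG in the table.

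**Figure D2:**
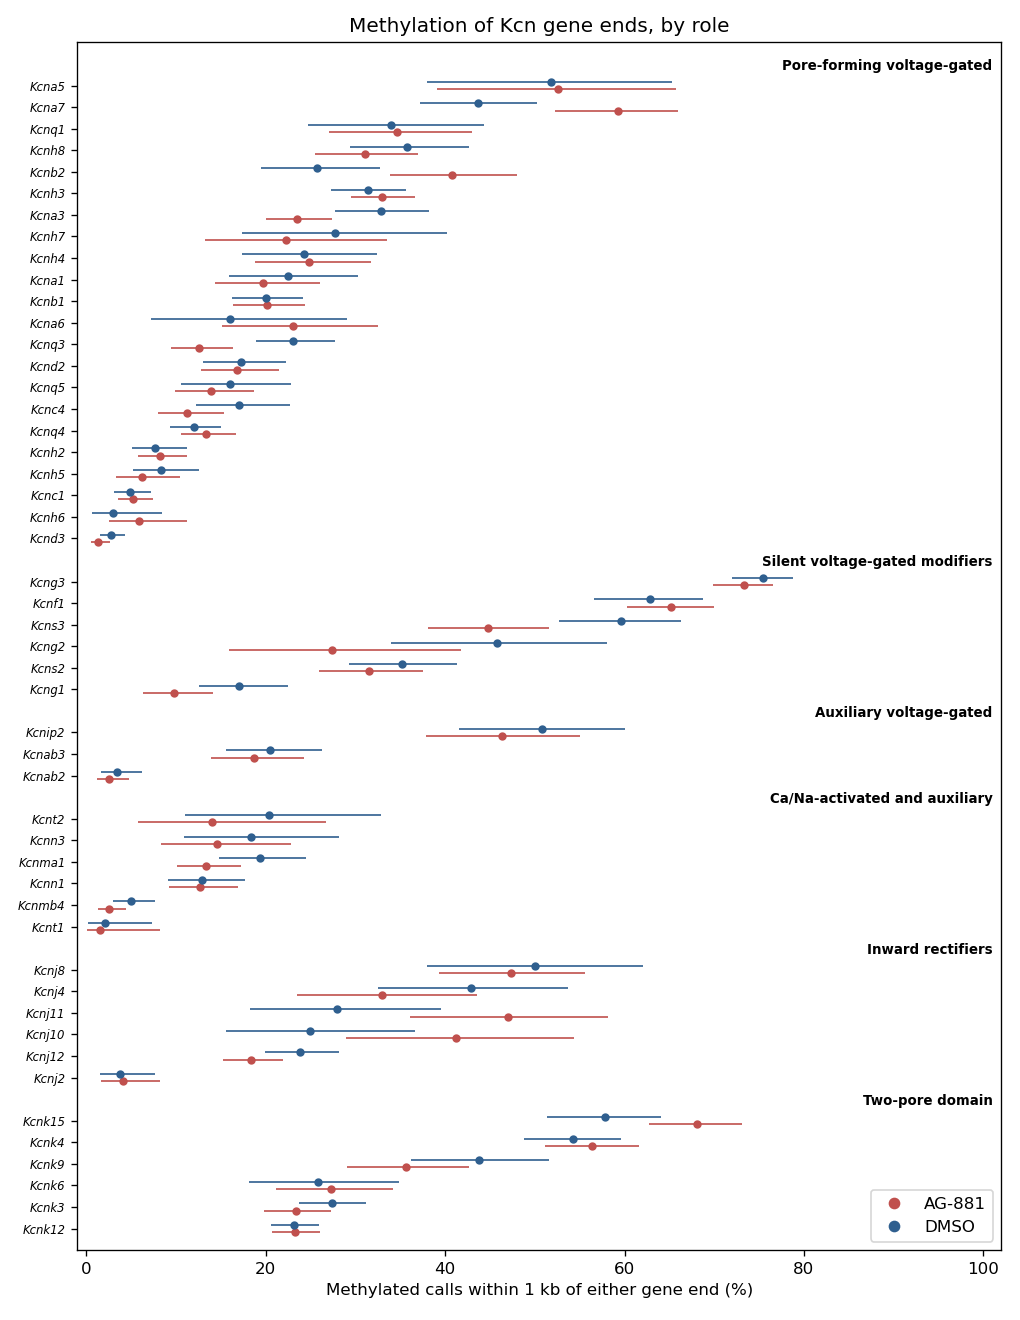
Methylated calls (%) within 1 kb of either end of the measured Kcn genes reported here, grouped by role and sorted by mean level, for AG-881 (red) and DMSO (blue) with 95% Clopper-Pearson intervals of the pooled calls. Kcng3, Kcnf1 and Kcnk15 stand farthest right, and for most genes the intervals of the arms overlap.

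Among the silent modifiers, Kcng3 was the most methylated of the measured Kcn genes, and the same group held a gene under 20%. All of its 141 CpGs with calls lay within 1 kb of its start (chr17:83630995-83632995), with 73.3% of 689 calls methylated with AG-881 and 75.5% of 640 with DMSO. By pool, Kcng3 read 76.1%, 75.6%, 64.7% and 73.3% with AG-881 and 74.8%, 85.6%, 73.1% and 72% with DMSO, and these overlapped. Its level was 16.3% of 43 calls and 45.5% of 33 calls at 500 to 750 bases before the start, 88.9% of 9 and 66.7% of 12 calls farther upstream, and reached 96.0% and 96.3% at 500 to 750 bases after it.

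Kcnf1, the only member of its subfamily, came next, with 65.2% of 391 calls and 62.8% of 258 methylated, all within 1 kb of the start (chr12:17175888-17177888). Every one of these calls lay after the start, and the promoter window of Kcnf1 had 0 calls. The pools of Kcnf1 read 70.7%, 60.2%, 72.7% and 58.7% with AG-881 and 55.6%, 48.7%, 61.5% and 84.6% with DMSO, so the DMSO pools spread over more than the whole AG-881 range. Kcns2 had 31.6% and 35.2%, and Kcng1 had 9.76% and 17.1%. Kcng1 was the lowest of the 6.

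Among the measured pore-forming voltage-gated genes, levels ran from 1.37% to 59.2% with AG-881. Kcna5 (Kv1.5, a channel of atrial muscle) and Kcna7 were the highest, with 52.5% of 59 calls and 51.8% of 56 for Kcna5. Kcnq1, the cardiac KvLQT channel, had 34.7% and 34.02%. At the low end were Kcnd3, an A-type channel (1.37% of 586 calls and 2.72% of 588), Kcnh6 (5.88% and 2.97%) and Kcnc1, a channel of fast-firing neurons (5.22% and 4.90%). Kcnd2, the nearest relative of Kcnd3 among the measured genes, stood at 16.8% and 17.3%, with intervals in both arms above those of Kcnd3.

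Subfamilies were not uniform across their measured genes. Within Kcna, levels ran from 19.7% with AG-881 in Kcna1 to 59.2% in Kcna7, and within Kcnh from 5.88% in Kcnh6 to 33% in Kcnh3. The highest DMSO levels were 35.8% for Kcnh8 in Kcnh and 25.7% for Kcnb2 in Kcnb. The windows of Kcnh6 overlap those of its neighbours Ace3 and Dcaf7, and those of Kcnh3 a window of Mcrs1.

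The auxiliary voltage-gated genes with enough calls were 3. Kcnip2, a calcium-binding subunit of A-type channels, had 46.4% of 138 calls and 50.8% of 120 methylated. The beta subunit genes Kcnab3 (18.7% and 20.5%) and Kcnab2 (2.54% of 355 calls and 3.46% of 289) were lower. The windows of all 3 overlap those of other genes, Armh3 for Kcnip2, Trappc1 for Kcnab3, and Chd5 and Nphp4 for Kcnab2. None of the 4 Kcne genes had 50 calls in both arms.

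The 6 measured of 12 genes for channels opened by calcium or sodium and their auxiliary subunits were all low. The 5 with CpGs but under the call limit read higher, from 37.5% of 16 calls in Kcnn4 to 95% of 20 in Kcnn2 with AG-881. Kcnt1, a sodium-activated channel, had 1.54% of 65 calls and 2.08% of 96, and Kcnmb4 had 2.58% of 466 and 4.99% of 381. The highest DMSO levels were 20.3% for Kcnt2 (14.0% with AG-881, 50 and 59 calls), 19.3% for Kcnma1, the pore of the large-conductance channel (13.4% with AG-881), and 18.4% for Kcnn3, a small-conductance channel (14.6% with AG-881).

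Among the measured inward rectifiers, Kcnj8 was highest and Kcnj2 lowest. Kcnj8 and Kcnj11 encode the pore subunits Kir6.1 and Kir6.2 of the ATP-sensitive channel. Kcnj8 had 47.4% of 154 calls and 50% of 72 methylated, nearly all within 500 bases after its start. Kcnj2, the classical Kir2.1 channel, had 4.09% of 171 calls and 3.80% of 184, and its relatives Kcnj4 and Kcnj12 had 33% and 42.9%, and 18.4% and 23.9%. The Kcnj4 value rests on 91 calls in each arm. A CpG-dense start 7270 bases inside Kcnj4, outside these windows, read lower, at 9.82% of 163 calls with AG-881 and 15.9% of 113 with DMSO.

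Of the 6 measured tandem pore domain leak channel genes, none was under 20% in either arm over both ends together. Kcnk12 had the most CpGs of all members, 170, with 23.3% of 978 calls and 23.2% of 1004 methylated, and Kcnk3 (TASK-1) had 23.4% of 530 and 27.4% of 570. Kcnk4 (TRAAK, a mechanosensitive channel) had 56.4% and 54.2%; its windows overlap a window of Catsperz. Both ends could be measured in 3 Kcn genes, all of this role: at the start and the far end, Kcnk4 read 36.7% and 80.3% with AG-881, Kcnk12 18% and 69.3%, and Kcnk15 72.2% and 60%. Kcnk15 thus had the higher level at its start, and Kcnk4 and Kcnk12 at their far ends.

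Where the strand of a gene was known, the start alone could be read. In 31 Kcn genes with at least 50 calls per arm at the start, the median level was 17.4% with AG-881 and 20.3% with DMSO, against 0.917% and 1.21% over 8252 starts of all genes. A mean level of at least 10% was found in 23 of these 31 (74.2%) and in 22.2% of all starts. In the 250 bases before the start, 20.6% of 1161 Kcn calls with AG-881 and 25.5% of 1130 with DMSO were methylated, and in the 250 bases after it 20.4% and 20.1%. Other genes had 4.35% and 5.07% before the start and 4.90% and 5.59% after it. The Kcn profile was lowest at 250 to 500 bases before the start, with 12.4% and 14.6%, and higher again at 750 to 1000 bases after it, with 29.1% and 33.5%. The bin farthest upstream held only 55 and 69 calls, so its 45.5% and 26.1% rest on few fragments.

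**Figure D3:**
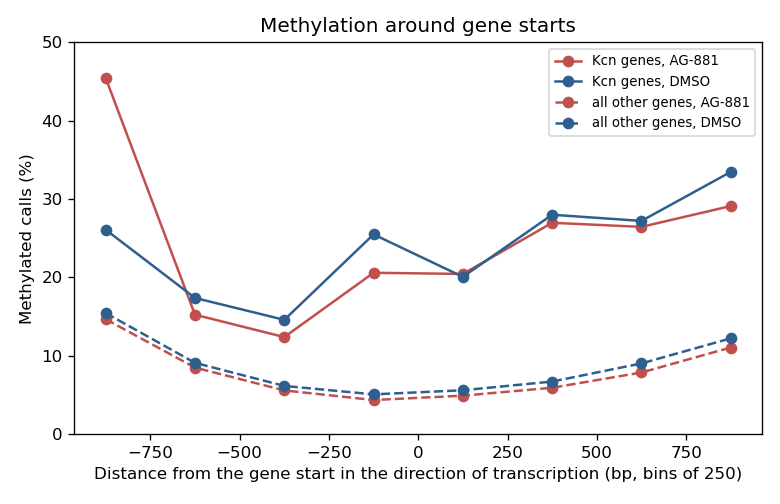
Methylated calls (%) in bins of 250 bases by distance from the gene start in the direction of transcription, for 33 measured Kcn genes of known strand (solid lines) and 8572 other genes (dashed lines), with AG-881 in red and DMSO in blue. Both Kcn lines lie above the dashed lines in every bin, and the leftmost Kcn points rest on 55 and 69 calls.

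Between arms, the Kcn gene ends as a whole differed little. With AG-881, 25.7% of 14769 calls were methylated (24.98 to 26.4), and with DMSO 26.6% of 12986 (25.9 to 27.4), a difference of -0.954 points (-1.996 to 0.0869) whose interval holds 0. By pool, the level was 21.9%, 27.1%, 27.9% and 25.5% with AG-881 and 27.8%, 26.2%, 28.4% and 24.2% with DMSO. The pools overlapped, and pool 1 was the lowest; without it the difference was 0.0990 points, on the other side of 0. All gene ends of the table together differed by -0.817 points.

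Gene by gene, 30 of the 51 were lower with AG-881 and 21 higher, where 55.2% of all genes were lower and 36.9% higher. The median difference was -1.36 points, and that of all genes -0.185. Genes near 0% can hardly fall, so the comparison with genes of a like level is closer. At a mean level of 10 to 90%, 25 of 42 Kcn genes were lower, against 64.4% of all 3062 genes, and the median difference was -2.14 points against -2.70. By at least 10 points, 3 Kcn genes were lower (Kcng2, Kcns3, Kcnq3) and 5 higher (Kcna7, Kcnb2, Kcnj10, Kcnj11, Kcnk15). The background over all genes was 4.69% lower and 1.60% higher, and at a mean level of 10 to 90%, where all 8 of these genes lie, 15.9% lower and 5.42% higher. The Kcn count of lower genes, 3 of 42, was thus below the share of all genes at like levels, and the count of higher genes, 5 of 42, above it; no test of this split was run. The split moved with the settings, to 5 lower and 2 higher in windows of 2 kb and to 4 lower and 1 higher at CpGs with calls in 5 or more cells per arm.

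The interval of the difference lay below 0 in 5 Kcn genes (Kcna3, Kcng1, Kcnj12, Kcnq3, Kcns3) and above 0 in 4 (Kcna7, Kcnb2, Kcnj11, Kcnk15), against a background of 8.91% and 2.75% of all genes. Such intervals take every call as independent, although neighbouring CpGs of the same cell are alike, so they are too narrow. Of 48 Kcn genes with at least 3 pools of 10 calls per arm, 0 had all AG-881 pools below all DMSO pools and 1, Kcna7, had them all above, where 1.99% and 0.571% of all genes did. The backgrounds for intervals and pools are over genes of all levels, and 61% of all measured genes had a mean level under 5%. Shares among genes of like level were not taken for them.

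The lower genes included 2 silent modifiers. Kcns3 (Kv9.3) had 44.7% of 219 calls methylated with AG-881 and 59.6% of 213 with DMSO, a difference of -14.9 points (-24.3 to -5.14). Its pools read 25.9%, 54.6%, 40.4% and 42.3% with AG-881 and 66.7%, 40.5%, 64.4% and 61.6% with DMSO, so 1 DMSO pool lay among the AG-881 pools. Kcng2 had 27.5% of 51 calls and 45.8% of 72, from 8 and 13 cells, and the interval of its difference, -18.4 points (-35.2 to 0.158), held 0. Only 2 AG-881 pools and 3 DMSO pools had 10 calls at Kcng2, and they overlapped, with 30.8% and 35.7% against 54.3%, 21.4% and 35.3%. Over the role, 5 of 6 genes were lower, the usual direction at these levels (64.4% of all genes), with a pooled difference of -3.09 points (-6.40 to 0.243).

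Kcnq3, a subunit of the neuronal M-current, had 12.6% of 381 calls methylated with AG-881 and 23.1% of 368 with DMSO, a difference of -10.5 points (-16.1 to -4.86). Its AG-881 pools read 8.70%, 13.3%, 15.2% and 13.1%, and its DMSO pools 22.9%, 32.6%, 23.9% and 12.1%. Of the DMSO pools, 3 stood above every AG-881 pool and pool 8 fell among them. With every CpG called in both arms given the same weight, the difference was -3.17 points.

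Kcna3 differed by -9.28 points (-15.8 to -2.89), with 23.5% of 531 calls and 32.8% of 323. Its AG-881 pools read 22.1%, 18.9%, 30.2% and 23.4% and its DMSO pools 25.4%, 41.7%, 35.7% and 35.6%, and they overlapped at 1 pool of each arm. Its start stood at 17.4% with AG-881 and 29.4% with DMSO, and its far end at 72.9% of 59 calls and 75% of 24 calls.

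The channels opened by calcium or sodium were lower with AG-881 in 6 of 6 genes, from -0.238 points in Kcnn1 to -6.34 in Kcnt2, where lower was also the direction of 55.2% of all genes and of 64.4% of those at a mean level of 10 to 90%. Their pooled difference was -2.63 points (-5.11 to -0.184). None reached 10 points, none of the 6 single intervals lay wholly below 0, and the pools of the role overlapped, with 5.28%, 12.4%, 11.4% and 7.88% against 13.9%, 10.5%, 14.2% and 8.82%.

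Kcna7 was the only Kcn gene whose pools did not overlap between arms. It had 59.2% of 211 calls methylated with AG-881 and 43.6% of 236 with DMSO, a difference of 15.6 points (6.02 to 24.9). Its pools read 50%, 64.2%, 66% and 54.6% with AG-881 and 41%, 42.9%, 47.2% and 43.6% with DMSO. Calls did not fall on the same CpGs in both arms: at 250 to 500 bases after the start there were 24 AG-881 calls at 54.2% and 84 DMSO calls at 34.5%, and at 500 to 750 bases 155 at 70.3% and 119 at 59.7%. With every CpG called in both arms given the same weight, the difference was -5.59 points. The direction at Kcna7 thus depends on which CpGs are used and how they are weighted.

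Of the other higher genes, Kcnb2 and Kcnj11 had pools that overlapped at their edges. Kcnb2, the delayed rectifier Kv2.2, had 40.8% of 196 calls and 25.7% of 179, a difference of 15.1 points (5.22 to 24.7). Its pools read 38.3%, 30.0%, 59.1% and 40% with AG-881 and 24.4%, 21.7%, 24.5% and 33.3% with DMSO. Kcnj11 had 47.1% of 85 calls and 28% of 75, a difference of 19.1 points (3.15 to 33.9), with pools at 66.7%, 44.4%, 45.5% and 38.1% and at 26.3%, 42.9%, 13.3% and 29.6%. In each gene, 3 AG-881 pools lay above all 4 DMSO pools and 1 did not.

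Kcnk15 and Kcnj10 were less stable. Kcnk15 had 68.1% of 326 calls and 57.8% of 244, a difference of 10.3 points (2.06 to 18.5), and its pools overlapped widely, at 80.2%, 56.7%, 73.8% and 62.2% against 59.7%, 78.9%, 60.3% and 38.9%. The difference lay at its far end, 60% and 44.8%, where the window overlaps that of Rims4, more than at its start, 72.2% and 69.5%. Kcnj10 had 41.3% of 63 calls and 25% of 72, a difference of 16.3 points (-0.613 to 32.4). The higher value with AG-881 lay after the start of Kcnj10, with 61.3% of 31 calls and 33.3% of 33 in the first 250 bases. In the 250 bases before its start, Kcnj10 was lower with AG-881, at 0% of 24 calls and 11.4% of 35. Its pools ran from 25% to 57.1% with AG-881 and from 0% to 53.9% with DMSO. At CpGs with calls in 5 or more cells per arm the difference was -1.21 points for Kcnk15 and -11.2 for Kcnj10.

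**Figure D4:**
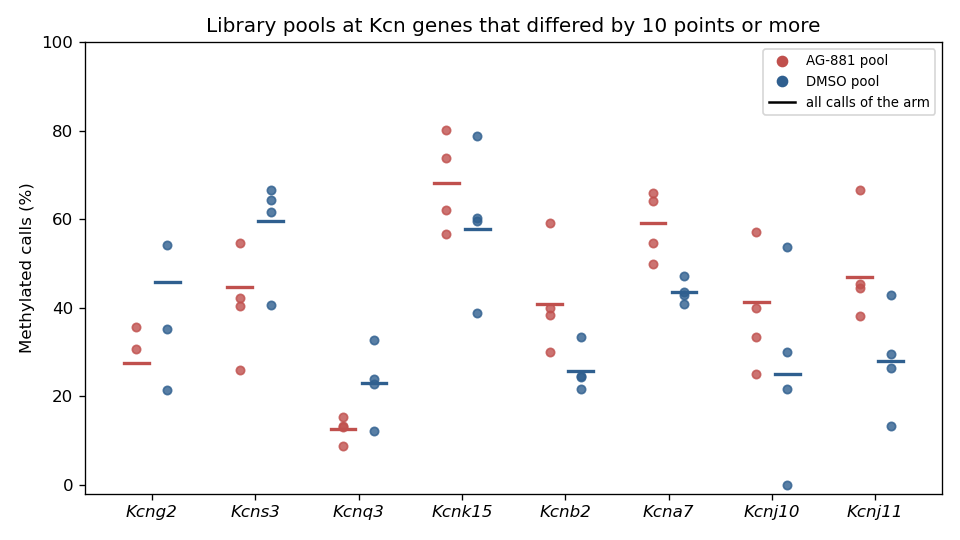
Methylated calls (%) by library pool (dots, pools with at least 10 calls) and over all calls of the arm (bars) for the 8 Kcn genes that differed by 10 points or more, with AG-881 in red and DMSO in blue. The pools of Kcna7 do not overlap between arms, and those of the other 7 genes do.

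In single cells, the level over all Kcn gene ends had a mean of 26.8% with AG-881 (SD 8.01, 67 cells) and of 26.8% with DMSO (SD 8.90, 74 cells), from a median of 228 and 166 Kcn calls per cell. Ends of other genes stood at 9.57% ± 1.41 and 10.3% ± 1.26. The Kcn level of a cell rests on fewer calls than that of other ends, and the part of this in its wider spread was not tested. Across cells, Pearson's r between the Kcn level and the level of other ends was 0.313 with AG-881 and 0.399 with DMSO, over cells that share pools and depth.

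The spread of cells differed with the level of the gene. Genes were classed by their mean level over both ends, but cells were read at the start alone where the strand was known. Kcnk4 was thus placed among genes of 40% or more, although its start read 36.7% with AG-881 and 42.9% with DMSO. At that start, 9 of 22 AG-881 cells and 9 of 25 DMSO cells were at or under 25%. Of cells with at least 4 calls at a gene (42 Kcn genes with 10 such cells per arm), those at genes of 40% or more fell at or under 25% in 20.5% of 215 gene and cell pairs with AG-881, in between in 45.6% and at or above 75% in 33.95%. With DMSO these shares were 15.9%, 52.9% and 31.2% of 170 pairs. At the 26 genes of 10 to 40%, most pairs were low, 68.7% of 748 with AG-881 and 62.7% of 678 with DMSO, 26.7% and 33.6% lay in between, and 4.55% and 3.69% were at or above 75%. At genes with a mean level under 10%, 0 of 241 and 0 of 224 pairs were at or above 75%.

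At the start of Kcng3, 1 of 44 AG-881 cells and 1 of 42 DMSO cells were at or under 25%, and 20 and 22 were at or above 75%. At Kcnd3, 39 of 42 and 36 of 37 cells were at or under 25%. At Kcns3, 8 of 23 AG-881 cells and 1 of 18 DMSO cells were at or under 25%. At Kcna7, 8 of 20 AG-881 cells and 3 of 24 DMSO cells were at or above 75%. Cells with so few calls are placed coarsely, and the cells of an arm share their culture.

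The 41 Kcn genes without enough calls were 11 with no CpG in the table and 30 below 50 calls in an arm, and they had at most 17 CpGs each. Together the 30 had 43.2% of 639 calls methylated with AG-881 and 49% of 590 with DMSO, so the measured genes are the CpG-richer and less methylated members. Just inside the limit lay Kcnt2 (50 and 59 calls), Kcna6 (100 and 50 calls, 23% and 16%) and Kcng2 (51 and 72 calls). Just outside lay Kcnip3 (46 and 46 calls, 8.70% and 10.9%), Kcnab1 (64 and 46 calls, 14.1% and 21.7%) and Kcnj5 (52 and 47 calls, 30.8% and 55.3%).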

How the data were processed

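The authors deposited 1 value per cytosine and cell, the methylated fraction, which is 0, 0.5 or 1 and missing without a call. Read counts behind a fraction are not given, so read depth is unknown. The build is mm10 according to the submitters' processing notes, and which aligner and caller were used is not given in the sources used here. Such libraries sample CpG-dense sequence, and cytosines that escape conversion read as methylated.

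Adjacent positions were merged as the strands of 1 CpG (87510 pairs, 1283428 autosomal CpGs, 11477481 calls), and ties, 74205 calls, were left out. Columns name the arm and pool but not the well. RefSeq tables of GRCm38.p6 gave the gene ends and, through promoter sequences, the strands. Calls were pooled per arm, with Clopper-Pearson intervals (SciPy 1.17.1, Python 3.11.15); intervals of differences combine those of both arms, and the scripts were tested on simulated data.

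Named genes differed by 10 points, were among the 8 highest, had pools that did not overlap, or had the highest DMSO level of a subfamily with at least 2 measured members; others were named after their values were seen, and 2 measured genes are counted but not reported singly here. The members and lists were chosen with earlier results of these data known. Alternatives changed the windows, call minimum, weights, strand merging and pools. The setting that gave every CpG the same weight used only CpGs with calls in both arms.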

Additional observations from a re-analysis of the deposited data

Results flagged for a closer look

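The inward rectifier genes (6 measured Kcnj genes) had 32.9% of calls methylated in DMSO pool 6, apart from the other 3 DMSO pools, which lay between 22.1% and 23%. Of 48 sets of 4 pools looked at, this was 1 that stood apart by Dixon's criterion, where chance gives about 1 in 20. Pool 6 had the highest DMSO level in 5 of the 6 genes, with 42.9% for Kcnj11, 53.9% for Kcnj10, 31.2% for Kcnj12, 60% for Kcnj8 and 53.3% for Kcnj4, from 10 to 61 calls each. For Kcnj2 it had 6.06%, below the 6.38% of pool 5. The AG-881 pools of these genes together ran from 19.9% to 30.0%.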

How the results depend on the processing

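Alternatives were 11 settings and the omission of each of 8 pools in turn. For single genes and subfamilies, the minimums of 20 and 100 calls were not counted. A change of sign was counted only where the value given was at least 10 points. On this count, 538 of 556 gene and subfamily differences stayed within their error of the value given, 15 moved and 3 changed sign. The last were Kcna7 (-5.59 points, every CpG with the same weight) and, where CpGs needed calls in 5 or more cells per arm, Kcnj10 (-11.2) and Kcnk15 (-1.21). The pooled difference ran from -1.93 to 0.0990 points with pools left out and was above 0 only without AG-881 pool 1; the median difference ran from -2.11 to -0.858. Leaving out pools gave 1 to 5 genes lower and 2 to 5 higher by 10 points, and a median level of 21.4 to 24%. Genes lower by 10 points numbered 1 in windows of 500 bases, 5 in windows of 2 kb, 1 with equal CpG weights and 6 at a minimum of 20 calls. Genes higher by 10 points numbered 2 in windows of 2 kb, 1 where CpGs needed calls in 5 or more cells per arm, 2 with equal CpG weights, 8 at 20 calls and 3 at 100 calls. The median level of both arms, 24.5%, became 21.8% in windows of 500 bases, 29% in windows of 2 kb, 21.1% at the end with more CpGs alone, 18.4% where CpGs needed calls in 5 or more cells per arm, 25.3% with equal CpG weights, 23.8% with equal cell weights, 25.2% with calls of 0.5 taken as methylated and 21.1% at 100 calls, while that of all genes ran from 0.978% to 5.29%. The causes were not tested. No paired analysis was possible because column names carry no replicate numbers. The median of 246 and 234 calls per gene leaves differences of a few points undetectable in single genes.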
